A study of Mus musculus with 9 samples.

Results

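Chemokine and chemokine receptor genes were followed over 4 stages of mouse mammary gland development. They were taken as every gene whose platform symbol stands alone on its probe set and either starts with Ccl, Cxcl, Ccr or Cxcr followed by a digit or is Cx3cl1, Cx3cr1, Xcl1 or Pf4. This gave 44 probe sets for 39 genes, of the 8251 genes that could be named on the 12422 probe sets of the MG-U74Av2 array, and each gene was read from its brightest probe set. The 39 genes were 25 ligands and 14 receptors. RNA came from whole inguinal glands (No4) of wild type C57BL/6J females with no transgene or treatment. There were 3 arrays for puberty (virgin mice, 6 weeks old), 2 for pregnancy (day 14), 2 for lactation (day 10) and 2 for involution (day 4). The ages of the parous mice are not given in the sources used here, and the study's methods call the arrays biological replicates. All 9 arrays thus share 1 genotype, and the number of arrays, 2 or 3 per stage, limits the precision of every value below.

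Chemokines are small secreted proteins that steer leukocytes, and some stromal and epithelial cells, along concentration gradients. They bind G protein-coupled receptors on the migrating cell, and the family is split into CC, CXC, XC and CX3C groups by the spacing of conserved cysteines. Some are induced by inflammation, others are made constitutively and place lymphocytes in lymphoid tissue, and in the mammary gland chemokines are known from the macrophages and eosinophils that gather around growing ducts and from the leukocytes that enter the gland after weaning. The whole gland holds epithelium, fat, stroma, vessels and leukocytes, and an inguinal gland may carry its lymph node. A lower signal in such bulk RNA can therefore come from fewer cells of a type or from less RNA per cell, which cannot be told apart here.

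A signal is the deposited intensity after scaling every array to the same median, in arbitrary units. A probe set was tested where its mean signal was above 20 in at least 1 stage, and values under 20 were raised to 20 before log2 was taken. Of the 39 genes, 16 had a stage mean above 100 and 14 had a highest stage mean between 20 and 100 and are called dim. The remaining 9, Ccl4, Ccl17, Cxcl2, Cxcl5, Pf4, Cxcr2, Ccr3, Ccr8 and Ccr1l1, lay near background, with stage means of at most 20 and array signals between 0.9 and 32.0, and were not tested. Arrays of the same stage correlated at Pearson's r of 0.947 to 0.975 over all probe sets, as log2 values, and arrays of different stages at 0.724 to 0.935.

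Most of the chemokine genes that could be measured differed between stages. In limma's moderated F test over the 4 stages, with Benjamini-Hochberg adjustment over 9783 probe sets, 24 of the 30 tested genes passed an adjusted p of 0.05. The same test called 51.6% of all probe sets. All 16 genes above 100 passed, as did 8 of the 14 dim ones. The 6 that did not pass were Ccl12, Ccl25, Ccr1, Ccr4, Cxcl10 and Xcl1. Because a dim gene enters the test only through the stage where it is high, these counts describe the genes and carry no test of their own. When 1 lactation array was left out, whichever of the 2, fewer of the 30 genes passed, at a share near that of all probe sets. Such a fit holds a single lactation array. Part of the 24 calls thus needed both lactation arrays, and fewer probe sets of the whole array were called in these fits as well.

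The stage of the highest signal was not spread evenly. Of the 30 tested genes, 16 were highest at involution, 8 at puberty, 6 at lactation and 0 at pregnancy. Among the 7090 genes tested on the whole array, the shares highest at puberty, pregnancy, lactation and involution were 17.1%, 19.2%, 39.6% and 24.1%. Lactation was the lowest stage for 18 of the 30, a count for which no share over all genes was taken. The 6 genes highest at lactation were Ccl1, Ccl6, Cxcl1, Ccr9, Cx3cr1 and Ccl25, and the first 5 of them passed the F test. These orders describe stage means, and neighbouring stages were not always told apart by the contrasts below.

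**Figure D1:**
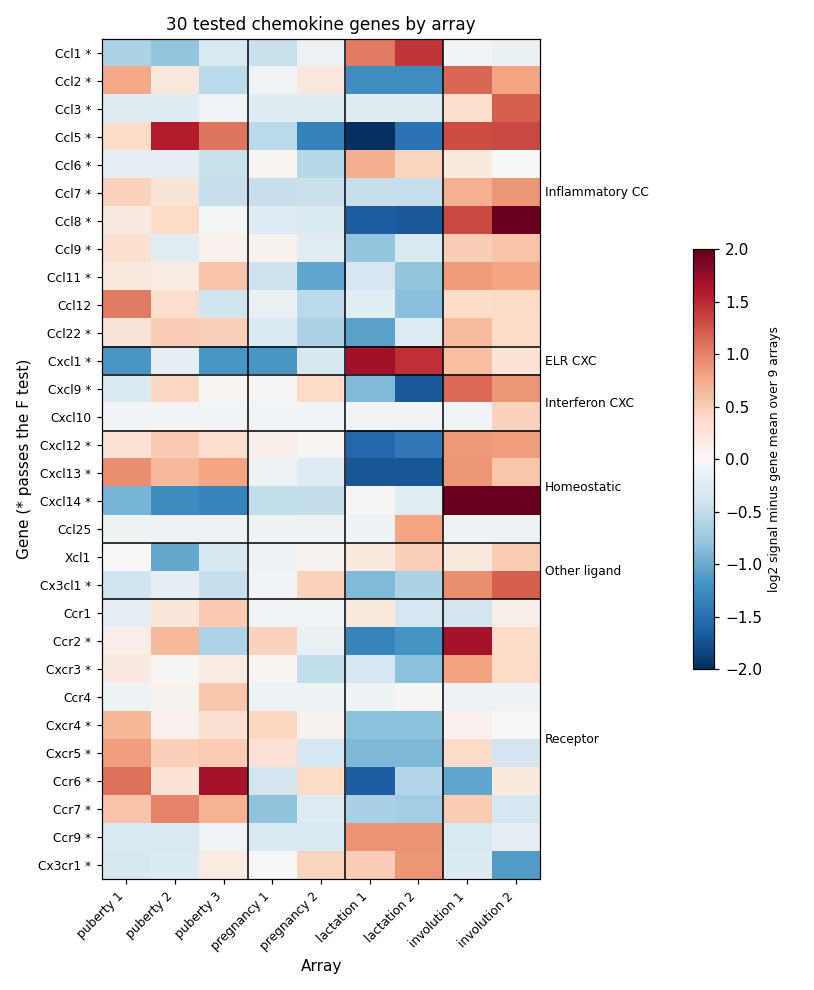
Signal of the 30 tested chemokine and receptor genes on each of the 9 arrays, as log2 signal (values under 20 raised to 20) less the mean of that gene across arrays, grouped by role, with stars for the 24 genes that passed the F test and colours that end at 2 in either direction. Lactation has the lowest stage mean for 18 genes, and Ccl1, Ccl6, Cxcl1, Ccr9 and Cx3cr1 are the starred genes highest there.

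Involution against lactation gave the most calls. At involution 17 of the 30 genes were higher and 4 were lower, where 22.1% of all tested probe sets were higher and 23.0% were lower. The median log2 change of the 30 genes was 0.96, beside -0.03 over all tested probe sets. Of the 21 calls, 11 were kept whichever array was left out, those of Ccl1, Ccl2, Ccl5, Ccl8, Ccl11, Cxcl9, Cxcl12, Cxcl13, Cxcl14, Cx3cl1 and Ccr9. Without lactation replicate 2 the count was 13 (11 higher and 2 lower).

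Lactation against pregnancy divided the genes more evenly. At lactation 4 genes were higher (Ccl1, Ccl6, Cxcl1 and Ccr9) and 8 were lower (Ccl2, Ccl8, Cxcl9, Cxcl12, Cxcl13, Cx3cl1, Ccr2 and Cxcr4), where 21.6% of all tested probe sets were higher and 19.7% lower. These shares lie near the background of the whole array. The median log2 change was -0.17 for the 30 genes and 0.07 over all probe sets. Calls of 6 genes were kept whichever array was left out, those of Ccl1, Ccl8, Cxcl1, Cxcl12, Cxcl13 and Ccr9. The count was 8 without pregnancy replicate 2 and 8 without lactation replicate 2, against 12 with all arrays.

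Pregnancy against puberty and involution against puberty moved few genes. At pregnancy 1 gene was higher (Cxcl14) and 4 were lower (Ccl5, Ccl11, Cxcl13 and Ccr7), with 6.20% of all tested probe sets higher and 5.22% lower. None of these 5 calls was kept whichever array was left out, and 0 were left when pregnancy replicate 2 was omitted, 1 when pregnancy replicate 1 was, and 2 or 3 without any other single array. Over the whole array the same contrast also called fewer probe sets in each of these fits, and fewest without a pregnancy array. Without puberty replicates 1, 2 and 3 the numbers were 778, 758 and 741, in place of 1118. At involution 4 genes were higher than at puberty (Ccl3, Ccl8, Cxcl14 and Cx3cl1), with 4.39% of all probe sets higher. At an unadjusted p of limma under 0.05, 11 genes were higher and 1 was lower, but the share of all probe sets at that threshold was not taken. By the adjusted p the number lower was 0, beside 3.10% of all probe sets lower, and 4 genes were called in all. The count was 2 without involution replicate 2. That fit holds a single involution array, and calls over the whole array fell as well. The 4 contrasts share arrays, so a gene low at lactation alone appears in more than one of them.

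The CC ligands of inflammation were 13 genes, of which 11 were tested and 10 passed the F test, which called 51.6% of all probe sets. Without lactation replicate 1 the calls left were 5, and without lactation replicate 2 they were 6. At involution 8 of the 11 were higher than at lactation (Ccl2, Ccl3, Ccl5, Ccl7, Ccl8, Ccl9, Ccl11 and Ccl22) and 1 was lower (Ccl1), beside 22.1% and 23.0% of all probe sets, and 5 of the 8 stayed higher without lactation replicate 1. Ccl8, or MCP-2, an attractant of monocytes and other leukocytes, had signals of 456.4, 530.6 and 390.3 at puberty, 334.0 and 332.1 at pregnancy, 127.8 and 125.3 at lactation and 1002.8 and 1595.3 at involution. Both involution arrays thus lay above all others, and both lactation arrays below all others. Ccl8 was higher at involution than at lactation by 3.32 on the log2 scale (SE 0.224, limma adjusted p = 1.92e-05) and than at puberty by 1.47 (SE 0.205, adjusted p = 0.00413). At lactation it fell by 1.40 relative to pregnancy (SE 0.224, adjusted p = 0.00159).

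Ccl5, or RANTES, which draws T cells, monocytes and eosinophils, followed another course. Its signals were 463.4, 1060.9 and 754.5 at puberty, 247.6 and 140.9 at pregnancy, 74.3 and 128.5 at lactation and 888.7 and 898.5 at involution. The involution arrays lay within the range of puberty, and those of pregnancy and lactation below it. The change at involution over lactation was 3.19 (SE 0.414, adjusted p = 4.39e-04), a 9.14-fold difference. At pregnancy Ccl5 fell by 1.94 relative to puberty (SE 0.378, adjusted p = 0.0124), but the adjusted p was 0.168 without pregnancy replicate 2, 0.0528 and 0.0561 without lactation replicates 1 and 2, and 0.0503 without involution replicate 1.

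Ccl9, a macrophage-derived ligand of Ccr1 in the mouse, had signals of 662.5, 453.9 and 559.7 at puberty, 557.6 and 450.7 at pregnancy, 308.6 and 427.2 at lactation and 743.1 and 787.8 at involution. It was bright at every stage and was higher at involution than at lactation by 1.08 (SE 0.219, adjusted p = 0.00437), with an adjusted p of 0.0509 without lactation replicate 1. Ccl22, a ligand of Ccr4 made by dendritic cells and macrophages, had 162.7, 191.7 and 189.2 at puberty, 112.0 and 87.7 at pregnancy, 65.0 and 113.8 at lactation and 210.6 and 177.5 at involution. Puberty and involution overlapped, as did pregnancy and lactation. The difference at involution over lactation was 1.17 (SE 0.275, adjusted p = 0.00868), and the adjusted p was 0.0682 without involution replicate 1.

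The monocyte attractants Ccl2 (MCP-1) and Ccl7 (MCP-3), the eosinophil attractant Ccl11 (eotaxin) and Ccl3 (MIP-1 alpha) were dim. Ccl2 had 80.1, 54.7 and 32.5 at puberty, 44.9 and 54.8 at pregnancy, 16.9 and 12.7 at lactation and 105.4 and 81.5 at involution. With both lactation arrays under 20, Ccl2 was at least 4.63-fold higher at involution (adjusted p = 0.00213). It was at least 2.48-fold lower at lactation than at pregnancy (adjusted p = 0.0261), a call lost without either lactation array, either pregnancy array or involution replicate 1 (adjusted p 0.0505 to 0.142). Ccl11 lies beside Ccl2 and Ccl7 on chromosome 11. Its signals were 63.2, 60.9 and 81.7 at puberty, 41.4 and 26.7 at pregnancy, 43.7 and 31.7 at lactation and 99.2 and 95.1 at involution. The change at involution over lactation was 1.38 (SE 0.299, adjusted p = 0.00584). At pregnancy it fell by 1.03 relative to puberty (SE 0.273, adjusted p = 0.0443), a call that leaving out any of the 9 arrays ended (adjusted p 0.0598 to 0.293).

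Ccl7 had 38.2, 32.9 and 17.8 at puberty, 18.7 and 20.2 at pregnancy, 19.5 and 3.0 at lactation and 45.4 and 51.2 at involution. It was at least 2.41-fold higher at involution than at lactation (adjusted p = 0.0066, and 0.0544 and 0.0517 without lactation replicates 1 and 2). Ccl3 had 11.6, 7.7 and 22.2 at puberty, 7.6 and 18.9 at pregnancy, 19.2 and 9.8 at lactation and 29.7 and 53.8 at involution. The involution arrays of both genes were the highest of the 9, at signals where the floor of 20 sets the size of the change. Ccl3 was at least 2-fold higher at involution than at lactation (adjusted p = 0.011, and 0.0717 and 0.0676 without lactation replicates 1 and 2). Against puberty it was higher by 0.95 (SE 0.226, adjusted p = 0.039), which held in the absence of involution replicate 1 and of no other array (adjusted p 0.081 to 0.117). With a floor of 50 the adjusted p of Ccl3 and of Ccl7 at involution over lactation was 0.262. Ccl12 (MCP-5) averaged 46.4 ± 0.970 at involution (SD, n = 2) and 48.4 ± 23.1 at puberty (SD, n = 3), and did not pass the F test (adjusted p = 0.174).

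A pair of CC ligands averaged highest at lactation, and of these only Ccl1 was also called lower at involution than at lactation. Ccl1, an attractant of Ccr8-bearing T cells and monocytes, had 39.4, 35.2 and 49.1 at puberty, 44.6 and 55.8 at pregnancy, 124.7 and 164.5 at lactation and 58.5 and 55.6 at involution. The lactation arrays stood apart from all others. Ccl1 rose at lactation relative to pregnancy by 1.52 (SE 0.266, adjusted p = 0.0024) and fell at involution relative to lactation by 1.33 (SE 0.266, adjusted p = 0.00398). A second, dimmer Ccl1 probe set was under 20 on average in the other 3 stages and rose at lactation, at least 2.13-fold relative to pregnancy (adjusted p = 4.80e-04). Ccl6, a macrophage-derived ligand known from the mouse, had 84.3, 82.6 and 69.2 at puberty, 97.2 and 63.8 at pregnancy, 156.4 and 128.3 at lactation and 107.9 and 93.7 at involution. Ccl6 passed the F test narrowly (adjusted p = 0.046), a call lost without most single arrays. Its change at involution relative to lactation, -0.49 (SE 0.257, limma adjusted p = 0.151), was not called. Its rise of 0.85 at lactation over pregnancy (SE 0.257, adjusted p = 0.028) was lost without lactation replicate 1 (0.133), lactation replicate 2 (0.0525) or pregnancy replicate 2 (0.154).

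Many of these genes are neighbours. In the RefSeq annotation of GRCm38.p6, Ccl2, Ccl7, Ccl11, Ccl12, Ccl8 and Ccl1 follow each other on chromosome 11 with 1 other gene between Ccl11 and Ccl12 and 0 elsewhere. Of these 6, Ccl2, Ccl7, Ccl11 and Ccl8 were highest at involution, Ccl12 at puberty and Ccl1 at lactation. The second stretch of the cluster starts 52 genes further on with Ccl5, Ccl9, Ccl6, Ccl3 and Ccl4, where Ccl6 was highest at lactation and Ccl5, Ccl9 and Ccl3 were highest at involution. Ccl4 was near background. Ccl8 and Ccl1, with no annotated gene between them, thus peaked at different stages, Ccl8 at involution and Ccl1 at lactation.

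Of the 3 ELR-bearing CXC ligands, which attract neutrophils through Cxcr2, only Cxcl1 was tested. Cxcl1 (KC) had signals of 8.2, 39.3 and 4.5 at puberty, 8.1 and 35.9 at pregnancy, 143.9 and 124.1 at lactation and 68.5 and 54.5 at involution. Puberty replicate 2 and pregnancy replicate 2 stood apart from the other arrays of their stages, and all 4 lactation and involution arrays lay above them. Cxcl1 was higher at lactation than at pregnancy by 2.32 (SE 0.404, adjusted p = 0.00237), and a second probe set was at least 2.32-fold higher (adjusted p = 0.0109). At involution it fell by 1.13 relative to lactation (SE 0.404, adjusted p = 0.0486), a call that was lost without any single array except puberty replicate 2 (adjusted p 0.0529 to 0.216). Its neighbour Cxcl2 (MIP-2), with 0 genes between them, Cxcl5 (LIX) and the receptor Cxcr2 were near background on all 9 arrays. The summed signal of the 6 neutrophil markers on the array was 329 to 680 at puberty, 281 to 348 at pregnancy, 411 to 683 at lactation and 374 to 452 at involution. Puberty thus overlapped lactation, unlike in Cxcl1. Of the 5 markers tested, Elane and Mpo were higher at lactation than at pregnancy. The calprotectin genes S100a8 and S100a9 did not pass that contrast, the neutrophil-defining Ly6g was under 20 on all arrays, and the count of 2 was 1 without pregnancy replicate 1 or lactation replicate 2. The part of these cells in the Cxcl1 result was not tested.

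Of the interferon-inducible ligands of Cxcr3, Cxcl9 (MIG) was measured well and Cxcl10 (IP-10) was not. Cxcl9 had 72.5, 117.5 and 90.6 at puberty, 89.8 and 115.0 at pregnancy, 48.0 and 27.5 at lactation and 193.9 and 163.6 at involution. The lactation arrays were the lowest of the 9 and the involution arrays the highest. Cxcl9 was higher at involution than at lactation by 2.29 (SE 0.332, adjusted p = 7.70e-04). At lactation it fell by 1.49 relative to pregnancy (SE 0.332, adjusted p = 0.00774), with an adjusted p of 0.0563 without lactation replicate 2 and 0.065 without pregnancy replicate 2. Cxcl10 was at or under 20 on 8 of the 9 arrays, reached 28.5 on involution replicate 2 and did not pass the F test (adjusted p = 0.432).

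**Figure D2:**
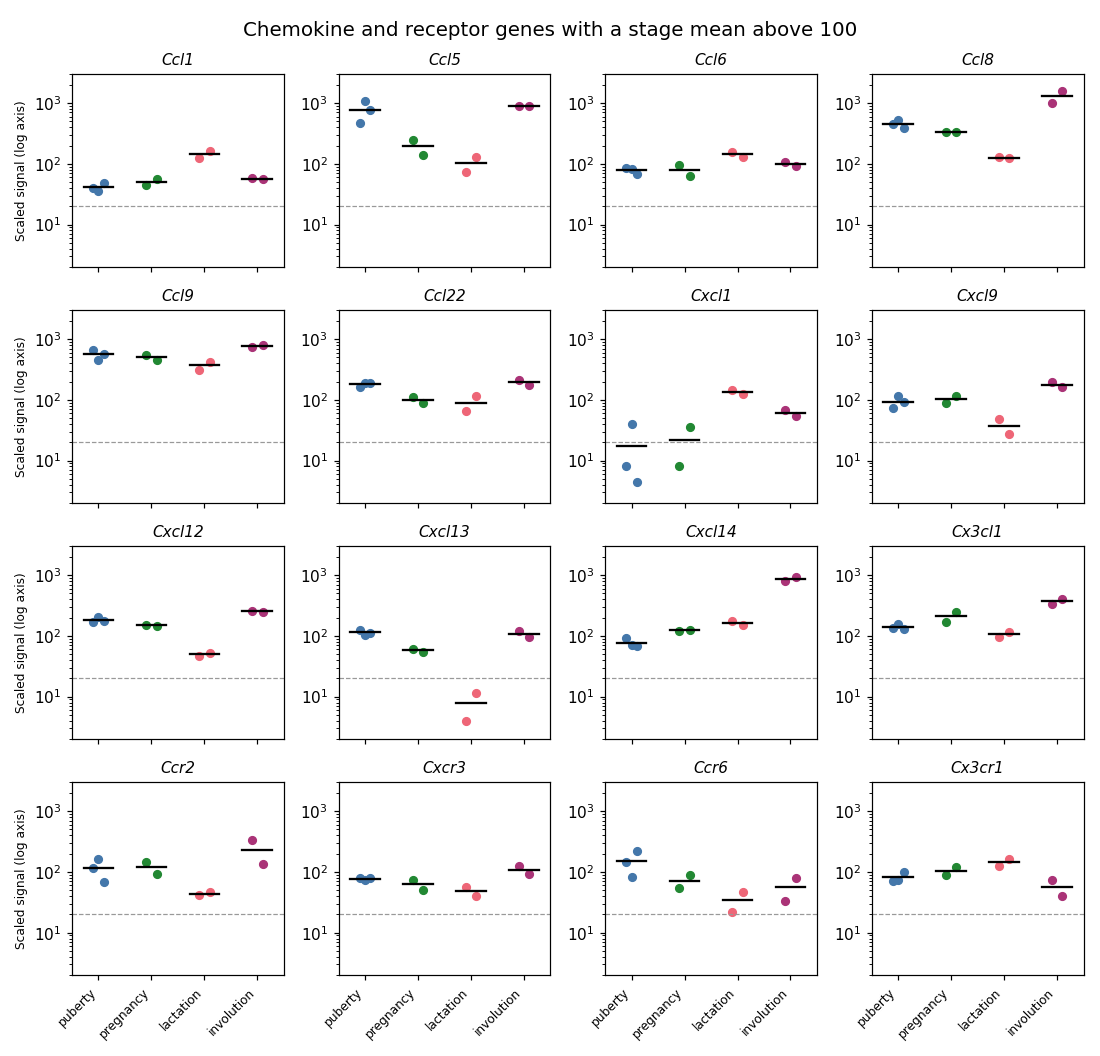
Scaled signal, on a log axis, of the 16 genes with a stage mean above 100, with a point per array (3 at puberty, 2 at each other stage), a bar at the stage mean and a dashed line at the floor of 20. Cxcl14 and Ccl8 have their highest points at involution, Ccl1 and Cxcl1 at lactation, and both lactation points of Cxcl13 lie under the floor.

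Among ligands made without inflammation, Cxcl14 had the largest change between puberty and involution of the 30 tested genes. Cxcl14 (BRAK) is made by epithelial cells and attracts immature dendritic cells and monocytes. It had signals of 90.6, 72.0 and 68.4 at puberty, 121.8 and 123.6 at pregnancy, 174.8 and 149.5 at lactation and 810.2 and 936.6 at involution. The stages did not overlap, and each stood above the one before it. At involution Cxcl14 was higher than at lactation by 2.43 (SE 0.188, adjusted p = 3.67e-05) and than at puberty by 3.51 (SE 0.172, adjusted p = 3.31e-05), which is 11.4-fold. The smaller difference at pregnancy over puberty, 0.68 (SE 0.172, adjusted p = 0.0368), held without puberty replicate 1 and was lost without any other array (adjusted p 0.05 to 0.187).

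Cxcl12 (SDF-1), which stromal cells make and which retains Cxcr4-bearing cells, had 171.6, 202.1 and 179.1 at puberty, 151.6 and 145.8 at pregnancy, 47.3 and 52.1 at lactation and 257.6 and 250.5 at involution. Replicates lay close together and no stage overlapped another. It fell by 1.58 at lactation relative to pregnancy (SE 0.165, adjusted p = 2.15e-04) and was higher at involution than at lactation by 2.35 (SE 0.165, adjusted p = 2.18e-05). The other 2 Cxcl12 probe sets were also lowest at lactation and higher at involution, by 1.75 (SE 0.215, adjusted p = 3.37e-04) and 1.13 (SE 0.318, adjusted p = 0.0191). They disagreed with the brightest one on involution against puberty, at -0.41 and -0.49 on the log2 scale beside 0.47, and none of the 3 passed that contrast. On 1 of them Cxcl12 fell by 0.94 at pregnancy relative to puberty (SE 0.196, adjusted p = 0.0173), which was not called on the brightest.

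Cxcl13 (BLC), which guides Cxcr5-bearing B cells into follicles, had 125.4, 103.2 and 112.9 at puberty, 61.2 and 54.7 at pregnancy, 3.9 and 11.6 at lactation and 121.2 and 96.0 at involution. It was at the floor on both lactation arrays, and the involution arrays overlapped those of puberty. Cxcl13 was at least 5.39-fold higher at involution than at lactation (adjusted p = 9.22e-05) and at least 2.89-fold lower at lactation than at pregnancy (adjusted p = 0.00114). At pregnancy it fell by 0.97 relative to puberty (SE 0.21, adjusted p = 0.0193), which was lost without either pregnancy array, puberty replicate 1 or puberty replicate 3 (adjusted p 0.0556 to 0.132). Ccl25 (TECK), the ligand of Ccr9, exceeded 20 only on lactation replicate 2, with 37.1, and did not pass the F test (adjusted p = 0.301).

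The promoters of 4 ligands are shown to set those with the most distinct stage profiles beside each other, from 250 bases before to 50 bases after the start in RefSeq's GRCm38.p6, on the strand of the gene. Cxcl14 (chr13:56296502-56296801, minus strand) and Ccl8 (chr11:82114935-82115234, plus strand) are the ligands highest at involution over puberty. Cxcl1 (chr5:90890995-90891294, plus strand) was highest at lactation, and its neighbour Cxcl2 (chr5:90903649-90903948, plus strand) was near background. Capitals mark matches, on either strand, to the NF-kB consensus, to the STAT element GAS (TTCNNNGAA) or to the core of the interferon response element ISRE (GAAA, any 2 bases and GAAA again).
Cxcl14: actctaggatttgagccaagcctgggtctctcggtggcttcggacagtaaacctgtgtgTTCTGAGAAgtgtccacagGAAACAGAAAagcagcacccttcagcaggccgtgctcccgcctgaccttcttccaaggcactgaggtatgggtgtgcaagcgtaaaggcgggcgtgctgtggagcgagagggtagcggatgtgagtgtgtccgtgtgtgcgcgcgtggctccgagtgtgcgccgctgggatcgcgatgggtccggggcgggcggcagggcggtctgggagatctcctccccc
Ccl8: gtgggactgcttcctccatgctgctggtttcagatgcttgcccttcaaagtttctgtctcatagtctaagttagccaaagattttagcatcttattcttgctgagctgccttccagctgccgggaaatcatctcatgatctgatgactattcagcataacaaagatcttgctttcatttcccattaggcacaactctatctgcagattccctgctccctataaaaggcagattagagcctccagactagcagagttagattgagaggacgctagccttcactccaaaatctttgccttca
Cxcl1: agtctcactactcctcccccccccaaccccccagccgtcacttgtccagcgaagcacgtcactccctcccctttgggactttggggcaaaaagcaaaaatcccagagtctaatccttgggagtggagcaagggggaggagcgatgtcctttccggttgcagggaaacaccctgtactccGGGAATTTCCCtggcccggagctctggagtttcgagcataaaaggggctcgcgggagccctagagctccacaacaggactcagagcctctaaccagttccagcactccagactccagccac
Cxcl2: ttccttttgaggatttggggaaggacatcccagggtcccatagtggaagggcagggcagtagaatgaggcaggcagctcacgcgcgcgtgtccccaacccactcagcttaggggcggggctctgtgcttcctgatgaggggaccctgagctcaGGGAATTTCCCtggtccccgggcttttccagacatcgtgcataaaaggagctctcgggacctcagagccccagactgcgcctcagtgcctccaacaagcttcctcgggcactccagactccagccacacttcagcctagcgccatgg
Cxcl14 held a GAS match at position -191, counted from the start base as 0, and an ISRE core at -172, which do not overlap. Ccl8 held no match to these letters in this window. Cxcl1 and Cxcl2 held the same 11 capital letters, which carry overlapping NF-kB matches on the 2 strands, at -71 and -70 in Cxcl1 and at -97 and -96 in Cxcl2. Of the 31 member genes with a window, 8 held the NF-kB consensus, 4 a GAS and 2 an ISRE core, the last being Cxcl10 and Cxcl14. Over all 32851 windows the shares were 8.46%, 8.3% and 3.44%. A match describes letters in the window and not a site in use.

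Cx3cl1 (fractalkine), a membrane-bound adhesion ligand of endothelium and epithelium that can be shed, had 134.7, 156.8 and 129.5 at puberty, 171.8 and 245.4 at pregnancy, 96.3 and 115.2 at lactation and 338.9 and 407.3 at involution. Its involution arrays were the highest and its lactation arrays the lowest of the 9. It was higher at involution than at lactation by 1.82 (SE 0.217, adjusted p = 2.88e-04) and than at puberty by 1.41 (SE 0.198, adjusted p = 0.00425), though the adjusted p against puberty was 0.0583 without involution replicate 2. At lactation it fell by 0.96 relative to pregnancy (SE 0.217, adjusted p = 0.00792), with 0.061 without lactation replicate 1 and 0.0561 without pregnancy replicate 2. A second probe set of Cx3cl1 lay near background and passed none of the contrasts. Xcl1 (lymphotactin), made by T and NK cells, averaged 51.9 ± 7.67 at involution (SD, n = 2) and 30.7 ± 10.6 at puberty (SD, n = 3) and did not pass the F test (adjusted p = 0.122). Pf4 (Cxcl4), the platelet factor, was near background.

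Cx3cr1, the receptor of Cx3cl1 on monocytes, macrophages and NK cells, ran opposite to its ligand at involution against lactation. Cx3cr1 had 70.7, 73.2 and 99.2 at puberty, 89.1 and 120.8 at pregnancy, 124.3 and 163.8 at lactation and 73.2 and 40.8 at involution. Lactation was the highest stage, and involution overlapped puberty. At involution Cx3cr1 fell by 1.38 relative to lactation (SE 0.335, adjusted p = 0.00983). The adjusted p was 0.0604 without involution replicate 2 and 0.0864 without lactation replicate 2.

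Of the 14 receptors 10 were tested and 8 passed the F test, beside 51.6% of all probe sets, but only 1 of these calls (Ccr9) was left without lactation replicate 1, and likewise without lactation replicate 2. The number was 5 without puberty replicate 1, either pregnancy array or involution replicate 1. At involution 4 receptors were higher than at lactation (Ccr2, Cxcr3, Cxcr4 and Cxcr5) and 2 lower (Ccr9 and Cx3cr1), beside 22.1% and 23.0% of all probe sets. Of the 4 higher, 0 were left without involution replicate 1 or without lactation replicate 2, and 1 (Cxcr3) without lactation replicate 1. Ccr2, the receptor of Ccl2 and Ccl7 on inflammatory monocytes, had 114.3, 163.9 and 67.9 at puberty, 144.1 and 94.0 at pregnancy, 41.3 and 46.2 at lactation and 330.9 and 133.9 at involution. The involution arrays differed widely, and the lower of them lay within the range of puberty. Ccr2 was higher at involution than at lactation by 2.27 (SE 0.496, adjusted p = 0.00618), by 1.62 without involution replicate 1 (adjusted p = 0.0643) and by 2.92 without involution replicate 2 (adjusted p = 0.00732). Without lactation replicates 1 and 2 the adjusted p was 0.0751 and 0.0592. At lactation Ccr2 fell by 1.41 relative to pregnancy (SE 0.496, adjusted p = 0.049), which was lost without either lactation array, either pregnancy array or puberty replicate 1 (adjusted p 0.0702 to 0.263).

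Cxcr3, the receptor of Cxcl9 on activated T cells, had 80.4, 72.4 and 79.9 at puberty, 73.9 and 50.5 at pregnancy, 56.1 and 40.3 at lactation and 124.2 and 93.2 at involution. Both involution arrays were above all others, and Cxcr3 was higher there than at lactation by 1.18 (SE 0.285, adjusted p = 0.0098, with 0.0632 without involution replicate 1 and 0.059 without lactation replicate 2). Cxcr4, the receptor of Cxcl12, had 55.6, 37.5 and 43.3 at puberty, 47.2 and 36.8 at pregnancy, 6.2 and 11.1 at lactation and 37.5 and 35.0 at involution. It was under the floor at lactation alone. Cxcr4 was at least 2.08-fold lower at lactation than at pregnancy (adjusted p = 0.00851, and 0.0571 without pregnancy replicate 1) and at least 1.81-fold higher at involution than at lactation (adjusted p = 0.0194, and 0.0572 to 0.071 without either lactation array or involution replicate 1).

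Cxcr5, the B cell receptor of Cxcl13, had 66.7, 51.9 and 53.0 at puberty, 45.7 and 29.4 at pregnancy, 14.8 and 18.5 at lactation and 48.7 and 29.0 at involution. Like Cxcl13 it was under the floor on both lactation arrays. It was at least 1.88-fold higher at involution than at lactation (adjusted p = 0.0428), a call lost without any lactation or puberty array or involution replicate 1 (adjusted p 0.0528 to 0.223). Ccr7, which leads T cells and dendritic cells to lymph nodes, had 61.2, 82.6 and 67.3 at puberty, 23.8 and 34.6 at pregnancy, 26.3 and 25.5 at lactation and 58.9 and 32.5 at involution. All 3 puberty arrays were above the rest. At pregnancy Ccr7 fell by 1.28 relative to puberty (SE 0.3, adjusted p = 0.0274), a call that held without either involution array and was lost without any other single array (adjusted p 0.0511 to 0.198). Ccr6, found on B cells and on some T cells, had 148.2, 83.8 and 218.4 at puberty, 53.7 and 90.7 at pregnancy, 22.1 and 46.0 at lactation and 33.5 and 78.8 at involution. It passed the F test (adjusted p = 0.0377) but none of the 4 contrasts, and the F call was lost without any array except puberty replicate 2 and involution replicate 2 (adjusted p 0.0715 to 0.21).

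Ccr9, the receptor of Ccl25 on thymocytes and gut-homing lymphocytes, was the receptor that rose at lactation. It had 16.8, 10.1 and 23.1 at puberty, 11.3 and 12.0 at pregnancy, 45.9 and 45.7 at lactation and 14.6 and 21.5 at involution. Both lactation arrays lay above the other 7. Ccr9 at lactation exceeded its pregnancy level at least 2.29-fold (adjusted p = 4.78e-04), and it fell by 1.14 at involution relative to lactation (SE 0.15, adjusted p = 4.59e-04). Both calls held without any single array, but all Ccr9 signals lie under 50, so a floor of 50 leaves no difference. Of the 4232 tested probe sets of the whole array with no stage mean above 100, 16.8% were higher and 10.4% lower at lactation than at pregnancy. Ccr1 had 28.2 ± 6.60 at involution (SD, n = 2) and 35.3 ± 8.65 at puberty (SD, n = 3), and Ccr4 reached 31.6 on puberty replicate 3, and neither passed the F test (adjusted p of 0.672 for Ccr1 and 0.456 for Ccr4).

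**Figure D3:**
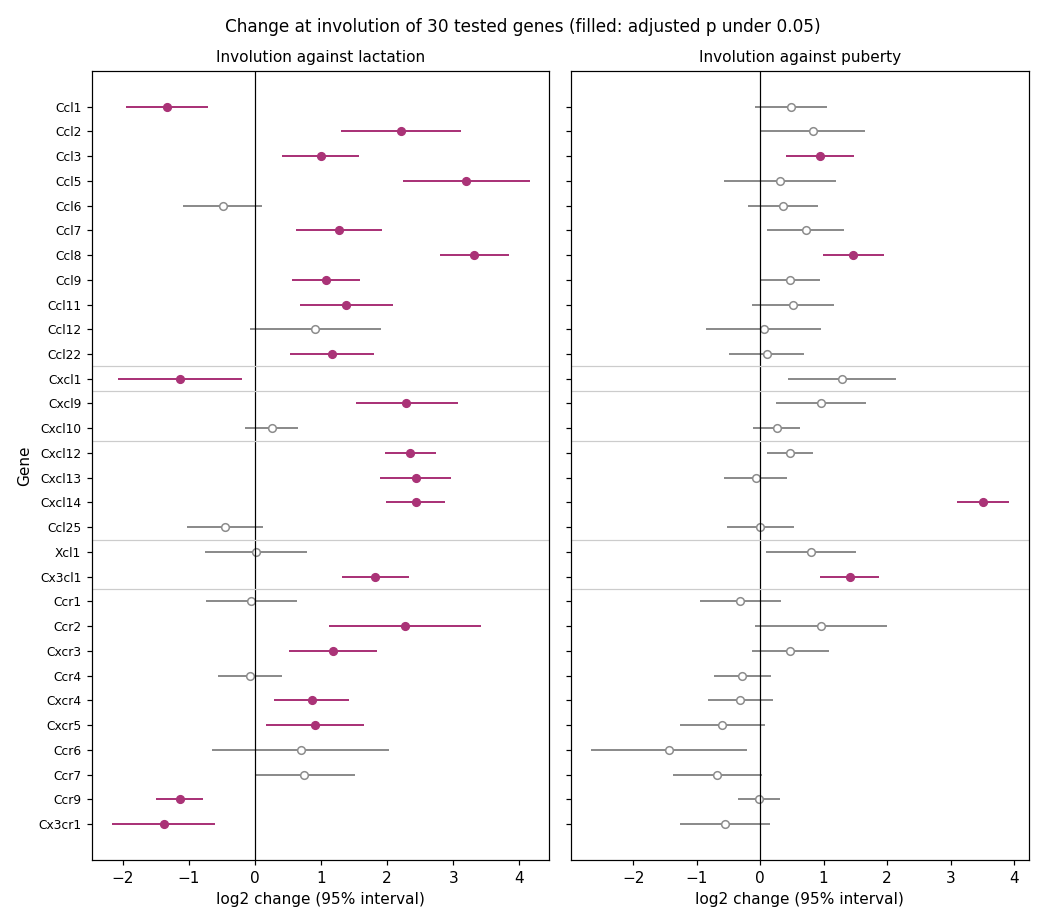
Log2 change, with its 95% interval from limma, of the 30 tested genes at involution against lactation and at involution against puberty, with filled points for an adjusted p under 0.05. Against lactation 17 filled points lie to the right of 0 and 4 to the left, and against puberty 4 lie to the right (Cxcl14, Ccl8, Cx3cl1 and Ccl3).

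Leukocyte markers moved over the same stages. The summed signal of 6 T cell markers was 1387 to 1827 at puberty, 783 to 1081 at pregnancy, 213 to 298 at lactation and 1139 to 1174 at involution, and all 6 were higher at involution than at lactation. The sum of 6 B cell markers was 2030 to 2294, 807 to 1104, 240 to 566 and 1699 to 1926 over the same order of stages. All 5 B cell markers that were tested were higher at involution than at lactation, and Cr2 was under 20 on all arrays. Most of these marker calls at involution over lactation were kept with any single array left out. Cxcl13, Cxcr5, Cxcr4 and Ccr7 were, like these lymphocyte sums, lowest at lactation and not higher at involution than at puberty by the test. The same held for Ccl2, Ccl5, Ccl7, Ccl9, Ccl22, Cxcl9, Cxcl12, Ccr2, Ccr6 and Cxcr3. Ccr6 and Cxcr3 in this list are also receptors of lymphocytes, but Ccl2 and Ccl7 attract monocytes. This course was therefore not particular to the lymphoid genes.

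Most macrophage markers, like the lymphocyte ones, were lowest at lactation, and all 5 averaged highest at involution. Csf1r, the receptor that macrophages need for survival, had 443.9, 531.1 and 467.2 at puberty, 389.1 and 359.7 at pregnancy, 119.8 and 190.8 at lactation and 934.2 and 1107.3 at involution. At lactation 3 of the 5 markers (Csf1r, Cd68 and Mrc1) were lower than at pregnancy, a count that was 3 without any single array, and 0 were higher. Cd14 averaged 1242 at lactation and 719 at pregnancy and did not pass that contrast (adjusted p = 0.145), nor did Adgre1. The sum of the 5 markers, of which Cd14 was the largest term at the 3 later stages and Csf1r at puberty, was 1257 to 1305 at puberty, 1504 to 1534 at pregnancy, 1216 to 2066 at lactation and 3262 to 5302 at involution. At involution 4 of the 5 were higher than at lactation and 4 were higher than at puberty, a count against puberty that was 2 without either involution array.

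Ccl8, Cxcl14, Cx3cl1 and Ccl3, the chemokine genes higher at involution than at puberty, moved beside markers of several cell types. At involution 3 of 4 milk protein genes and 1 of 4 luminal epithelial markers were higher than at puberty. In the same contrast 2 of 4 fibroblast markers were lower and 0 of 5 endothelial markers were called. Besides those of macrophages, 2 of 5 mast cell markers (Cma1 and Tpsb2), 1 of 3 plasma cell markers (Jchain) and 1 of 3 white adipocyte markers (Lep) were also higher. All 4 skeletal muscle markers were lower at involution than at puberty. Without involution replicate 2 these counts were 0 for mast cells, 1 for plasma cells, 0 for adipocytes and 2 for muscle, and the mast cell count was 1 without puberty replicate 1 or 2 or any pregnancy or lactation array. Skeletal muscle markers summed to 331 to 392 at involution and 6252 to 14680 at puberty, and mast cell markers to 1504 to 1994 at involution and 646 to 704 at puberty. The part of a changed share of any of these cells in the chemokine results was not tested. Fibroblast markers summed to 8718 to 11149 at puberty, 9075 to 9832 at pregnancy, 2893 to 3476 at lactation and 5593 to 6673 at involution. The summed milk protein signals, 76397 to 97601 at lactation against 12072 to 12817 at pregnancy, were also highest at lactation, and their part in the low lactation values was not tested.

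**Figure D4:**
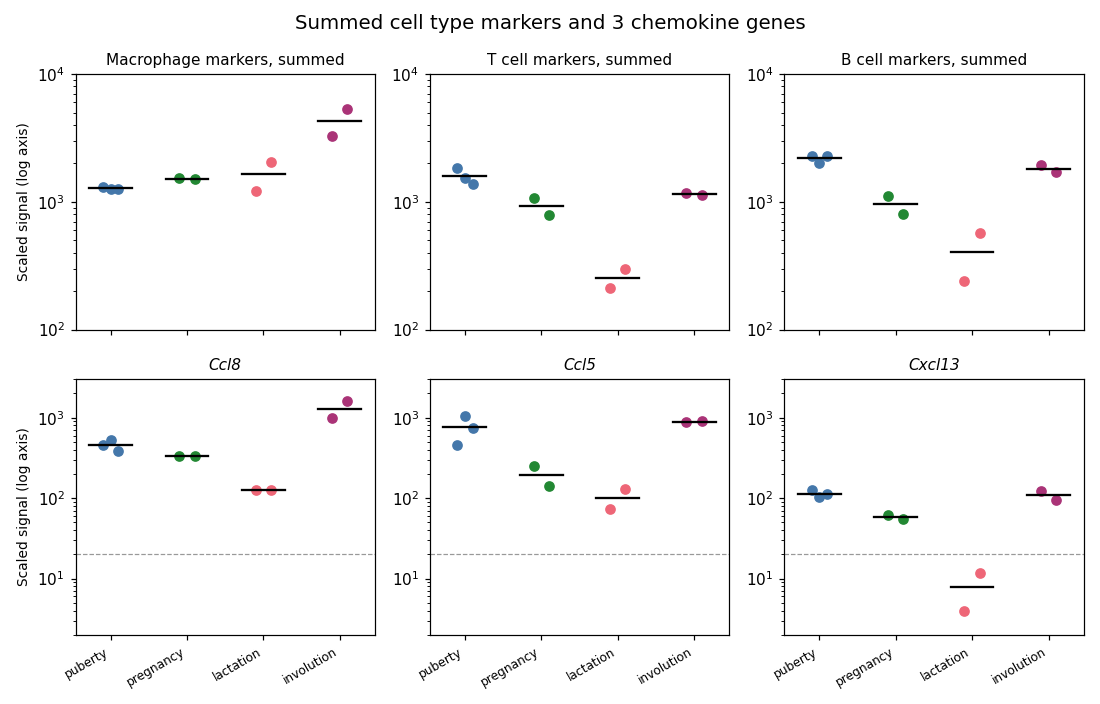
Summed scaled signal of macrophage, T cell and B cell markers (top) and scaled signal of 3 chemokine genes (bottom) by stage on log axes, with a point per array and a bar at the stage mean. T and B cell sums are lowest at lactation, and the macrophage sum is highest at involution.

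Other genes of chemokine signalling were read from a list of 51 receptor-coupled G proteins, kinases, cytoskeletal effectors, atypical receptors, heparan sulfate carriers and upstream cytokines. Of these 41 had a probe set, 36 were tested and 23 passed the F test, beside 51.6% of all probe sets. At involution 16 were higher and 4 lower than at lactation, beside 22.1% and 23.0% of all probe sets. At lactation 3 were higher and 13 lower than at pregnancy, beside 21.6% and 19.7%. At pregnancy 3 were higher and 3 lower than at puberty, beside 6.20% and 5.22%, and at involution 3 were higher and 1 was lower than at puberty, beside 4.39% and 3.10%. The 6 calls at pregnancy were 3 without pregnancy replicate 1 and 0 without pregnancy replicate 2, and the 4 calls at involution against puberty were 0 without involution replicate 2 and 1 or 2 without any puberty or lactation array. Calls over the whole array fell in these fits too. The cytokines Il1a, Il6, Csf2 and Ifng and the receptor Cmklr1 had stage means of at most 20.

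The 4 genes of that list with the smallest F p-values were Was, Gnb1, Cdc42 and Sdc4. Was, the actin regulator of blood cells that is lost in Wiskott-Aldrich syndrome, had 181.7, 152.3 and 147.4 at puberty, 83.0 and 59.6 at pregnancy, 12.5 and 13.4 at lactation and 156.4 and 167.6 at involution. Its involution arrays lay within the range of puberty, and it was at least 8.1-fold higher at involution than at lactation (adjusted p = 3.67e-05). Gnb1, a G protein beta subunit, had 512.6 and 600.6 at involution and 131.9 and 139.6 at lactation, a difference of 2.03 (SE 0.161, adjusted p = 4.10e-05). Cdc42, a small GTPase of cell polarity and migration, had 901.7 and 815.8 at involution and 274.9 and 312.9 at lactation, a difference of 1.55 (SE 0.134, adjusted p = 6.21e-05). Sdc4, a heparan sulfate proteoglycan of the cell surface, ran the other way. It had 837.0 and 756.4 at lactation and 329.4 and 264.7 at pregnancy, a rise of 1.43 (SE 0.189, adjusted p = 6.22e-04), and fell by 1.11 at involution relative to lactation (SE 0.189, adjusted p = 0.00183), where its signals were 318.6 and 427.6.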

How the data were processed

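RNA of the whole mammary gland at 4 stages was measured on 9 MG-U74Av2 arrays. Per the labels and the study's methods, the authors labelled the RNA with biotin and deposited an untransformed intensity for every probe set on every array, made with MAS5, whose version is not given in the sources used here. The authors' later filter and normalization are not in these deposited intensities, whose medians were 48.1 to 53.8 per array. Here 66 control probe sets were left out, the arrays were scaled to the same median (factors of 0.948 to 1.06), signals below 20 were raised to 20 before the log2 transform. Probe sets with a stage mean above 20 were tested, 9783 in all.

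Symbols came from the platform annotation (10833 probe sets with 1 symbol, 396 with several and 1193 not listed), updated by Entrez ID for 10817 of the 10833 through RefSeq gene names for GRCm38.p6, which changed 0 of the chemokine symbols. A further 4 probe sets that pair a symbol of the rule with others were left out. Promoter windows came from the same RefSeq build.

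Tests used limma 3.58.1 in R 4.3.3 (lmFit, eBayes with a trend) on all 9 arrays, with an F test over the 4 stages and 4 contrasts, Benjamini-Hochberg adjustment over all tested probe sets and a threshold of 0.05. Values were read with the R package data.table, version 1.17.8, and pandas 2.3.3, and drawn with matplotlib 3.10.9. The code was tested on simulated data. A fold against a stage under 20 on all arrays is a bound set by the floor.

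All genes above 100 are described by array, dim ones that pass the F test likewise, and the others by range or name. Of the pathway list, the 4 genes with the smallest F p-value are named. The genes and lists were chosen with earlier results of these data known. Alternatives were other scalings, floors and filters, variance settings, all probe sets, a replicate block, a plain analysis of variance and leaving out each array.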

Additional observations from a re-analysis of the deposited data

How the results depend on the processing

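Read from the brightest probe set of each gene, the direction of no called chemokine gene was reversed by any alternative run. Of 729 values per gene and setting, 647 stayed on the same side of the threshold. Calls were lost more often with an array left out. Other scalings moved the median of all probe sets by at most 0.07 on the log2 scale. With a floor of 50, 12 genes passed the F test, 1 the contrast of pregnancy against puberty and 7 that of lactation against pregnancy, in place of 24, 5 and 12. Over the whole array that floor left 3634, 802 and 2942 probe sets called, in place of 5047, 1118 and 4035. The calls lost included bright genes never under 50, such as Ccl9, and the cause was not tested. Also lost were the calls of Cxcr4 and Cxcr5, and those of Ccl2 and Cxcl13 at lactation against pregnancy. Without a filter, 1 gene passed at pregnancy against puberty. A plain analysis of variance called 12 by the F test, and 3851 probe sets of the whole array in place of 5047.

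Same-numbered arrays did not deviate together (correlations of -0.089 to 0.049), so replicate numbers are only names. With the replicate block 0 genes were called at pregnancy against puberty by limma, beside 543 probe sets of the whole array in place of 1118. At an unadjusted p under 0.05 there were 11 genes, but the share of all probe sets at that threshold was not taken. No other count moved by more than 1.5 times.

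Leaving out each array in turn gave 13 to 22 genes for the F test, 0 to 3 for pregnancy against puberty, 8 to 13 for lactation against pregnancy, 13 to 20 for involution against lactation and 2 to 5 for involution against puberty. The remaining single array of a stage is then assumed to vary like the other stages. Most of these fits also called fewer probe sets of the whole array. For pregnancy against puberty without pregnancy replicate 2, the share of all probe sets at an unadjusted p under 0.05 was not taken either. The same alternatives for the pathway and marker lists were added after seeing the data. With 2 arrays at most stages, signals under 20 are bounds, and brightness does not rank genes against each other.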
